A study of Mus musculus with 2 samples.

Results

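Developing T cells that have bound self peptide and MHC with enough affinity pass positive selection in the thymus, and the cells described here were chosen by RNAs known from that step. They were taken from single-cell RNA libraries by a rule on raw UMI counts (a UMI is a single counted RNA molecule). A cell barcode was a member if it had at least 1 Trac UMI (the constant part of the TCR alpha chain) and at least 1 Cd5 UMI (a surface brake on TCR signalling that is raised at selection). It also needed at least 1 UMI of Tox, Ccr9, Cd28 or Kcnmb4, at most 1 UMI of Tnfrsf9, Nfkbid and Xcl1 together, and 0 UMIs of Foxp3, Ptcra, Rag1, Klf2, S1pr1, Cxcr6, Il18r1 and Ccr2. This rule found 254 members among the 7501 kept cKO barcodes and 162 among the 7137 kept WT barcodes, 416 of the 16313 barcodes of the series. Members were chosen by measured RNA, so their difference from other cells is a description and carries no test.

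The study compared the thymus of SETDBf/fCD4-Cre mice (cKO) with the thymus of WT mice, in 1 droplet library per genotype (10x Genomics 3′ v3.1 chemistry), and both cell suspensions had been enriched with beads against CD25. In the cKO mice Cre is driven by Cd4 control elements, which act in thymocytes that reach the CD4 and CD8 double-positive (DP) stage and persist in the T cells they form. Which of Setdb1 and Setdb2 carries the floxed allele is not stated, and age, sex, strain background and the number of animals per library are not given in the sources used here. No replicates exist, so no value below is a test between genotypes, and all intervals are 95% and cover counting error only. UMIs of a gene can sit in few cells, which makes these intervals too narrow for such genes.

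Before selection, DP thymocytes express RAG recombinase and Dntt (the enzyme that adds bases at V(D)J junctions). A TCR signal ends recombination, raises CD5, CD69 and the TCR itself, lowers CD4 and CD8 for a time, and starts the choice between the CD4 and CD8 lineages. Later, KLF2 turns on the egress receptor S1PR1 and the cells gain CCR7, IL-7 receptor, MHC class I and GIMAP proteins. SETDB1 is a histone methyltransferase that writes H3K9 trimethylation at silenced genes and retroelements, and ATF7IP and RESF1 are its partners.

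The files held 76668166 UMIs for cKO and 89370968 UMIs for WT. Kept cells had a median of 4854 UMIs in cKO and 7882 UMIs in WT. Both libraries held 16 of the same barcode sequences, of which 3 were cKO members and 0 were WT members. Doublet scoring called 129 kept cKO barcodes and 148 kept WT barcodes, and 0 members. The gene named by the label cannot be checked from these data, because 3′ tags can lie outside the deleted part: cKO members held 43 Setdb1 UMIs, against 41 in WT members, and 8 Setdb2 UMIs, against 7 in WT members.

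Members fell into 2 depth classes with a gap between them. In cKO, 233 members had at most 7625 UMIs and 21 had at least 10641. In WT, 136 members had at most 6338 UMIs and 26 had at least 11104. A limit of 10000 UMIs was set after these depths had been seen, and the classes are called small and deep members below. Deep members were 8.27% of cKO members and 16.0% of WT members, but they held 51.9% of the members' UMIs in cKO and 66.5% in WT. A sum over all members is therefore mostly a sum over deep members.

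The markers given with the label were lower per UMI in deep members than in small ones. Values are CPM, the UMIs of a gene scaled to a fixed total of UMIs of the class, and they compare 1 gene between cells, not genes with each other. Trac stood at 1937 CPM in cKO and 1862 CPM in WT small members, against 79.7 CPM in cKO and 64.4 CPM in WT deep members. Cd5 stood at 1249 CPM in cKO and 1350 CPM in WT small members, against 88.3 and 103 CPM in cKO and WT deep members. Ccr9, a chemokine receptor that guides thymocytes, had 1273 CPM in cKO and 1259 CPM in WT small members, against 25.6 CPM in cKO and 25.5 CPM in WT deep members. Cd6, a CD5 relative that the rule did not use, had 828 and 779 CPM in cKO and WT small members, against 101 and 83.8 CPM in cKO and WT deep members. Tox, which the rule used, had 575 CPM in cKO and 567 CPM in WT small members, against 127 CPM in cKO and 125 CPM in WT deep members. Lef1, a transcription factor of T cell development, had 1083 CPM in cKO and 1288 CPM in WT small members, against 303 CPM in cKO and 311 CPM in WT deep members, though 20 of 21 cKO and 24 of 26 WT deep members held a UMI of it.

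Genes of cycling cells, gamma-delta T cells and earlier thymocytes had a UMI in more of the deep members than of the small ones. Trdc, the TCR delta constant part, had a UMI in 21 of 21 cKO and 22 of 26 WT deep members, against 7 of 233 cKO and 4 of 136 WT small members. Mki67 or Top2a, genes of dividing cells, had a UMI in 20 of 21 cKO and 23 of 26 WT deep members, against 14 of 233 and 5 of 136 in cKO and WT small members. Gzma, a granule protease, was seen in 19 of 21 cKO and 22 of 26 WT deep members, against 31 of 233 and 16 of 136 small members in cKO and WT. Dntt was seen in 21 of 21 cKO and 24 of 26 WT deep members, with 658 and 477 CPM in cKO and WT deep members, against 394 and 383 CPM in cKO and WT small members. Il2ra, which encodes CD25, was seen in 7 of 21 cKO and 10 of 26 WT deep members. Deep cells give more UMIs of any gene, yet Trdc also had 283 CPM in cKO and 256 CPM in WT deep members, against 10.7 CPM in cKO and 9.65 CPM in WT small members. Deep members are called by their depth and not by the label's name, and list counts between the genotypes are given for all members and for small members.

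**Figure D1:**
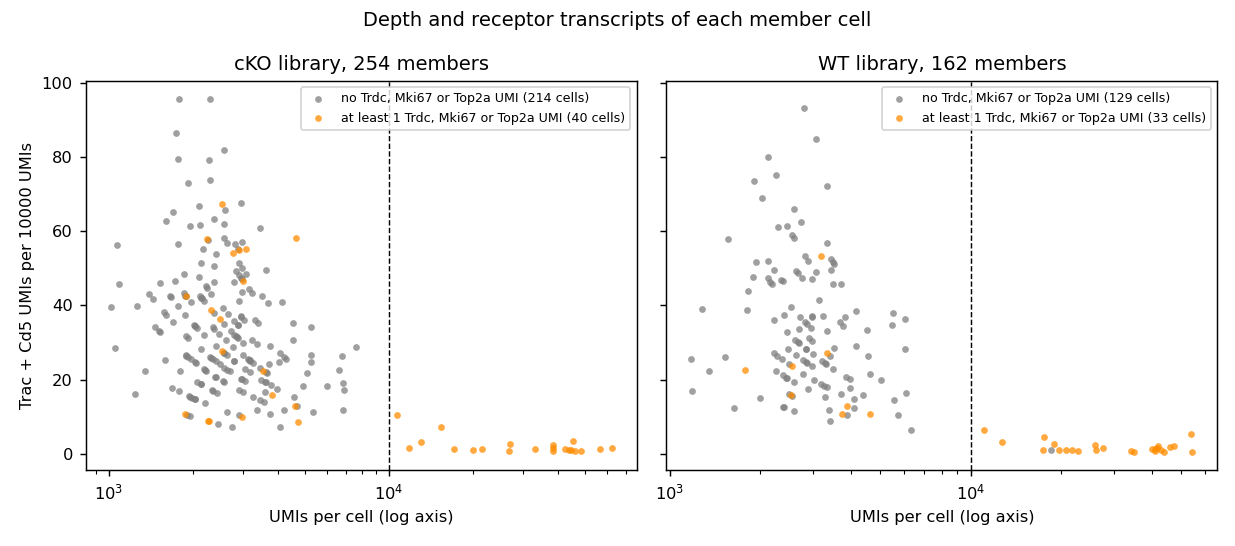
Each point is a member cell, with its UMIs on a log axis and its Trac plus Cd5 UMIs per 10000 UMIs on the vertical axis, cKO on the left and WT on the right. The dashed line marks 10000 UMIs; cells to its right lie low in Trac and Cd5 and nearly all hold a Trdc, Mki67 or Top2a UMI (orange).

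UMIs of free RNA can put a gene into a cell that does not express it. Cd6 had a UMI in 81.1% of cKO and 76.5% of WT members, at medians of 2651.5 UMIs in cKO and 3030.5 UMIs in WT. In B cells of the same libraries (19 in cKO with a median of 6098 UMIs, and 37 in WT with a median of 5357 UMIs), Cd6 had a UMI in 15.8% of cKO and 5.41% of WT cells. Lef1 had a UMI in 74.0% of cKO and 82.7% of WT members, against 21.1% of cKO and 21.6% of WT B cells. Cd5 had a UMI in 26.3% of cKO and 5.41% of WT B cells, some of which can express Cd5 themselves. Members with exactly 1 Cd5 UMI, at the edge of the rule, numbered 74 in cKO and 39 in WT, and 202 cKO and 126 WT barcodes just outside it failed only the Cd5 criterion.

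Members made up 3.39% of kept cKO cells (2.99 to 3.82) and 2.27% of kept WT cells (1.94 to 2.64), a ratio of 1.49 (1.22 to 1.83). For small members the ratio was 1.63 (1.31 to 2.03), and for deep members it was 0.768 (0.411 to 1.42). Depth differed between the libraries, and with cells thinned to 2000 UMIs before the rule the ratio was 1.36 (1.09 to 1.69). The thinned rule chose partly other cells: 159 of its 197 cKO and 105 of its 152 WT members were members before thinning. The earlier neighbours, which met every other criterion but held a Rag1 UMI, made up 3.32% of cKO and 2.37% of WT cells, a ratio of 1.40 (1.15 to 1.71). The later neighbours, which met every other criterion but held a Klf2 or S1pr1 UMI, made up 1.35% of cKO and 1.56% of WT cells, a ratio of 0.866 (0.655 to 1.14). Bead enrichment sets the denominator of all these shares, and fewer CD25-positive cells or more of the others cannot be told apart. Il2ra had a UMI in 10 of 233 cKO and 5 of 136 WT small members.

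Small members lay between the Rag1 neighbours and the late neighbours in the RNA of the DP program. These comparisons used cells under 10000 UMIs: 236, 233 and 73 cKO cells and 156, 136 and 77 WT cells, from the Rag1 neighbours through the members to the late neighbours. Dntt had 1416, 394 and 167 CPM along these 3 stages in cKO, and 1590, 383 and 105 CPM in WT. Arpp21, an RNA-binding protein of DP cells, had 1221, 304 and 58.4 CPM in cKO and 1264, 224 and 59.4 CPM in WT. Both genes were lower at each later stage in both libraries. Rag2, the partner of Rag1 in the recombinase, had 70.4, 7.67 and 0 CPM in cKO and 76.3, 12.1 and 2.38 CPM in WT. It was lower in members than in the Rag1 neighbours but not absent. The rule did not use Rag2 but split these cells on its partner Rag1, so this difference is a description.

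Cd8a and Themis were lower at each later stage in both libraries, and Cd4 was lower in members than in the Rag1 neighbours. Cd8a had 1747, 775 and 261 CPM in cKO and 2033, 803 and 219 CPM in WT. Cd4 had 509, 192 and 170 CPM in cKO and 558, 125 and 181 CPM in WT. Themis, a TCR signalling protein needed for positive selection in mice, had 960, 469 and 122 CPM in cKO and 928, 424 and 105 CPM in WT.

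Other genes were near their peak in the members. Itm2a, a membrane protein induced at positive selection, had 51.8, 793 and 392 CPM in cKO and 17.4, 825 and 366 CPM in WT. Hivep3, a zinc-finger factor, had 60.4, 476 and 142 CPM in cKO and 21.8, 502 and 99.9 CPM in WT. Lef1 had 349, 1083 and 378 CPM in cKO and 399, 1288 and 533 CPM in WT. Cd6 had 418, 828 and 373 CPM in cKO and 368, 779 and 416 CPM in WT. The intervals of the members did not overlap those of either neighbour for these 4 genes in either library. This is no test, because Itm2a, Hivep3 and Cd6 were named by their rank in comparisons of these same members and Lef1 came with the label. UMIs were also uneven between cells: 11 cKO cells with Cd4 UMIs and no Cd8 UMI held 143 of the 517 Itm2a UMIs of cKO small members. Gata3, a factor of the CD4 lineage, had 142, 322 and 211 CPM in cKO and 139, 330 and 178 CPM in WT. Ccr4, a chemokine receptor of medulla-bound thymocytes, had 2.88, 49.1 and 2.78 CPM in cKO and 6.54, 36.2 and 9.51 CPM in WT.

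A further 5 genes were higher in members than in the Rag1 neighbours in both libraries. Nr4a1, an immediate TCR target, had 58.9, 281 and 167 CPM in cKO and 50.1, 263 and 221 CPM in WT. Ikzf2, which encodes Helios and marks strong TCR signals, had 164, 824 and 743 CPM in cKO and 224, 1015 and 930 CPM in WT. Bcl2, a survival protein, had 73.3, 362 and 392 CPM in cKO and 39.2, 277 and 266 CPM in WT. The adhesion receptor gene Cd2 had 188, 704 and 723 CPM in cKO and 150, 895 and 880 CPM in WT. Cd69, the early activation receptor that holds cells in the thymus, had 71.9, 152 and 331 CPM in cKO and 41.4, 91.6 and 202 CPM in WT, and was higher in cKO at each stage.

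Maturation genes were still low in the members. Ccr7, the receptor for entry into the medulla, had 1.44, 39.9 and 437 CPM in cKO and 6.54, 67.5 and 549 CPM in WT. H2-K1, an MHC class I gene, had 58.9, 112 and 1863 CPM in cKO and 37.0, 181 and 1876 CPM in WT. Gimap3, of the GIMAP family of lymphocyte survival GTPases, had 2.88, 6.14 and 275 CPM in cKO and 0, 19.3 and 257 CPM in WT. Zbtb7b, the CD4 lineage factor, had 12.3 CPM from 8 UMIs in cKO and 12.1 CPM from 5 UMIs in WT members. Small members were not uniform in this: Ccr7 reached 272 CPM (141 to 475) from 12 UMIs in the 11 cKO cells with Cd4 UMIs and no Cd8 UMI. In small members with neither coreceptor Ccr7 had 83.9 CPM in cKO and 192 CPM in WT.

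**Figure D2:**
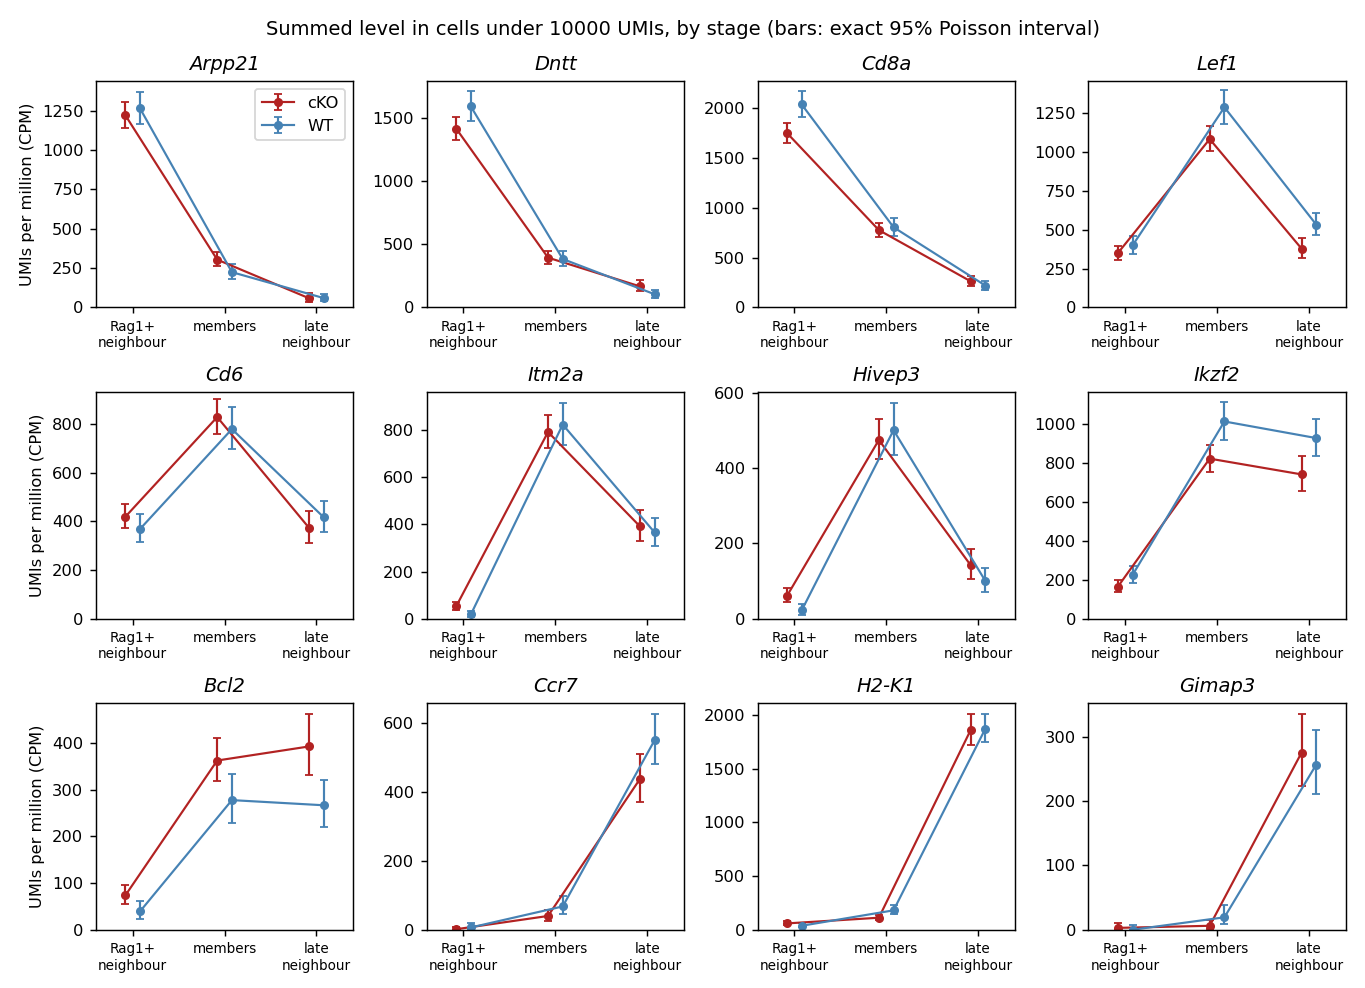
Summed CPM of 12 genes in cells under 10000 UMIs, from the Rag1 neighbours through the members to the late neighbours, cKO in red and WT in blue, with exact Poisson intervals. Arpp21, Dntt and Cd8a step down, Lef1, Cd6, Itm2a and Hivep3 peak in the members, and Ccr7, H2-K1 and Gimap3 are high only in the late neighbours among these stages.

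Across all genes, a gene was called here when its CPM plus 5 differed at least 1.5-fold in the same direction in both libraries, among genes with at least 50 UMIs. Under 10000 UMIs, 138 of 3144 genes (4.39%) were higher and 196 (6.23%) were lower in members than in the Rag1 neighbours. Against the late neighbours 439 of 2633 genes (16.7%) were higher and 185 (7.03%) were lower in members. With deep cells included, 123 of 5262 genes (2.34%) were higher and 346 (6.58%) lower than in the Rag1 neighbours, and 166 of 5488 genes (3.02%) were higher and 155 (2.82%) lower than in the late neighbours. Against all other kept cells, 291 of 11551 genes (2.52%) were higher and 403 (3.49%) lower, led by Cd6 with log2 differences of 2.85 in cKO and 2.57 in WT and by Itm2a with 2.79 in cKO and 2.51 in WT. Under 10000 UMIs the counts were 517 of 10050 genes higher (5.14%) and 1068 lower (10.6%). All these counts describe how the rule divides the cells.

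The agonist-signalled neighbours, which met every other criterion but held at least 2 UMIs of Tnfrsf9, Nfkbid and Xcl1 together, numbered 43 in cKO and 57 in WT. Under 10000 UMIs their Ikzf2 stood at 2259 CPM in cKO and 2124 CPM in WT, and their Itm2a at 1379 and 1344 CPM in cKO and WT. Members lay below them in both genes. Lef1 had the opposite order, with 519 CPM in cKO and 325 CPM in WT agonist-signalled cells.

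Coreceptor UMIs divided the members further. Detection depends on depth, so shares were taken after each cell had been thinned to 2000 UMIs, which left out 51 cKO and 14 WT members. Cells with Cd4 and Cd8 (Cd8a or Cd8b1) UMIs were 23.6% of cKO (18.0 to 30.1) and 14.2% of WT members (9.0 to 20.9), a ratio of 1.67 (0.979 to 2.93). Unthinned, these shares were 28.7% in cKO and 18.5% in WT. Cells with Cd8 UMIs only were 40.9% of cKO and 42.6% of WT members, cells with neither were 33.5% of cKO and 41.2% of WT, and cells with Cd4 only were 1.97% of cKO and 2.03% of WT. None of these ratios had an interval that excluded 1 after thinning. Among small members alone the shares with neither were 28.0% in cKO and 29.5% in WT, and those with Cd4 and Cd8 were 26.4% in cKO and 17.2% in WT.

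Among small members with both coreceptors, with Cd8 only or with neither, Dntt and Arpp21 were highest in cells with both, and Lef1 and Bcl2 in cells with neither. They numbered 71 cKO and 29 WT cells with both, 110 and 76 with Cd8 only, and 41 and 28 with neither, each in cKO and WT, beside 11 cKO and 3 WT cells with Cd4 only. Dntt had 819 CPM in cKO and 1024 CPM in WT cells with both, 344 and 343 CPM with Cd8 only, and 41.9 and 45.6 CPM with neither. Arpp21 had 631 and 610 CPM with both, 267 and 192 CPM with Cd8 only, and 21.0 and 27.4 CPM with neither, each in cKO and WT. Lef1 had the reverse order, with 626 and 376 CPM with both, 960 and 1323 CPM with Cd8 only, and 1873 and 1844 CPM with neither, in cKO and WT. Bcl2 had 706 CPM in cKO and 530 CPM in WT cells with neither, against 229 and 77.8 CPM with both. Cd6 had another order and was highest of these 3 classes with Cd8 only, at 1033 CPM in cKO and 852 CPM in WT. Trac stayed within 1662 to 2092 CPM in all 3 classes of both libraries.

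In cells with both coreceptors Itm2a and Ikzf2 were higher in cKO than in WT and Ccr7 was lower, 3 genes chosen after their values were seen. Itm2a had 464 CPM (373 to 571) in cKO and 77.8 CPM (28.6 to 169) in WT cells with both coreceptors. Ikzf2 had 521 CPM (424 to 634) in cKO and 285 CPM (179 to 432) in WT cells of that class. Ccr7 had 5.21 CPM (0.132 to 29.1) in cKO, from 1 UMI, and 64.8 CPM (21.1 to 151) in WT cells with both. In cells with Cd8 only Itm2a and Ikzf2 had the other order, with Itm2a at 414 CPM (341 to 498) in cKO and 650 CPM (548 to 766) in WT, and Ikzf2 at 876 CPM (768 to 994) in cKO and 1213 CPM (1072 to 1369) in WT. These classes rest on 1 or more UMIs of shallow cells, and 29 WT cells carry the WT values with both coreceptors.

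Small members with and without an Itm2a UMI also differed in Dntt and Nr4a1 in both libraries. Small members with an Itm2a UMI (83 cKO and 56 WT cells) had 111 CPM Dntt in cKO and 106 CPM in WT. Members without one (150 cKO and 80 WT cells) had 605 CPM Dntt in cKO and 639 CPM in WT. Nr4a1 ran the other way, with 410 CPM in cKO and 387 CPM in WT cells with Itm2a, against 185 CPM in cKO and 148 CPM in WT cells without it. The median depth was 2998 UMIs in cKO and 3286.5 UMIs in WT cells with Itm2a, against 2366.5 UMIs in cKO and 2596 UMIs in WT cells without it.

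**Figure D3:**
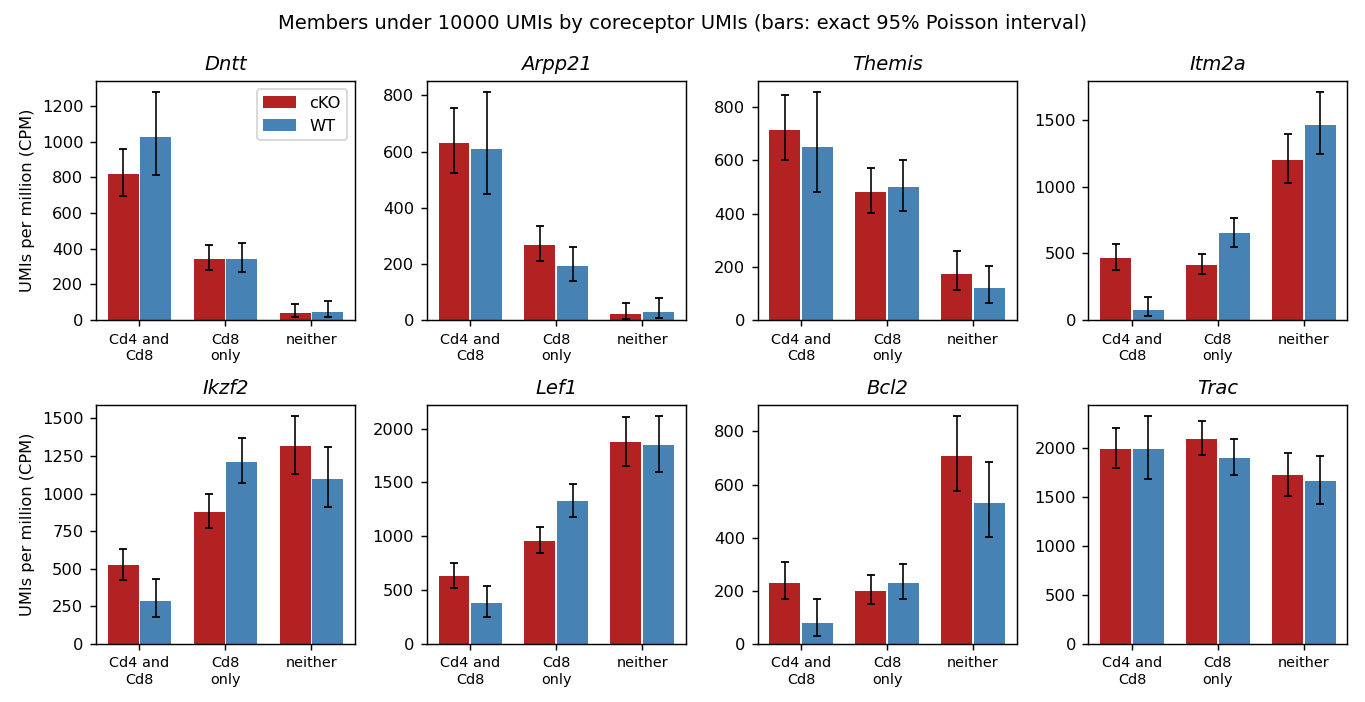
Summed CPM of 8 genes in members under 10000 UMIs with Cd4 and Cd8 UMIs, Cd8 UMIs only or neither, cKO in red and WT in blue, with exact Poisson intervals. Dntt and Arpp21 are highest in cells with both and Lef1 and Bcl2 in cells with neither, in each library; Itm2a in cells with both is 464 CPM in cKO and 77.8 CPM in WT.

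Between the genotypes, the members' RNA was largely alike. Over all members 267 of 5870 genes (4.55%) were at least 1.5-fold higher in cKO than in WT and 127 (2.16%) were lower, and the median gene differed by 0.03 on the log2 scale of (CPM + 5). With each cell weighted equally, 353 were higher and 384 lower. Small members held 48.1% of the members' UMIs in cKO and 33.5% in WT. The part of this in the higher and lower calls over all members, here and in the lists below, was not tested. Over small members 152 of 3616 genes (4.2%) were higher and 100 (2.77%) lower. Only some of these calls were shared: of the genes tested both ways, 194 were higher in all members and 152 in small members, with 70 in both, which is 36.1% and 46.1% of each list. Of the lower genes, 15 were called in all members and 100 in small members, with 7 in both. With 1 library each these counts describe the libraries.

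Atf7ip, the SETDB1 partner, was among the genes with the largest difference in both sets. It had 247 UMIs (182 CPM) in cKO and 93 UMIs (75.1 CPM) in WT members. In small members it had 334 CPM in cKO and 145 CPM in WT, a ratio of 2.31 (1.73 to 3.13), while deep members had 29 UMIs in cKO and 33 in WT. After thinning, 42.9% of cKO and 20.3% of WT members had an Atf7ip UMI, a ratio of 2.11 (1.38 to 3.32). Among cells under 10000 UMIs the stages beside the members differed too, with 319 CPM in cKO and 209 CPM in WT Rag1 neighbours and 339 CPM in cKO and 102 CPM in WT late neighbours. Resf1, also a SETDB1 partner, had 186 CPM in cKO and 135 CPM in WT small members, a ratio of 1.37 (0.993 to 1.92). In the late neighbours under 10000 UMIs Resf1 had 857 CPM in cKO and 97.5 CPM in WT, a larger difference than in small members. This contrast between the stages was not tested.

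Of the 25 measured genes of H3K9 methylation and of the HUSH silencing complex, Atf7ip and Resf1 were higher and 0 lower, with a median log2 of -0.08 beside 0.03 over all genes with at least 20 UMIs, of which 5.93% were higher and 3.36% lower. In small members 2 of 20 were higher, Atf7ip and Tasor (a HUSH subunit, 92.0 CPM in cKO and 57.9 CPM in WT), with 0 lower and a median of 0.26 beside -0.01 over all genes, of which 7.44% were higher and 6.47% lower. Trim28, which recruits SETDB1, had 124 CPM in cKO and 152 CPM in WT small members. A list of 12 genes that were higher in cKO Treg cells had been chosen on these libraries, so it is no independent evidence. Over all members 7 of its genes had at least 20 UMIs, of which Atf7ip, Trim24 and Resf1 were higher and 0 lower, with a median of 0.27. In small members 1 of 6, Atf7ip, was higher and 0 lower, with a median of 0.43. Cfap53, Krt83 and Dapl1 had 0 UMIs in cKO and in WT members.

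Tsc22d3, which encodes the glucocorticoid-induced GILZ, was also among the 12 named higher genes. It had 321 UMIs in cKO and 123 UMIs in WT members, and 402 CPM in cKO and 203 CPM in WT small members, a ratio of 1.98 (1.55 to 2.57). It was also higher in cKO Rag1 neighbours under 10000 UMIs, with 512 CPM in cKO and 157 CPM in WT. Of the 24 genes of its list, responses to glucocorticoid and FOXO, 10 were higher and 0 lower over all members, with a median log2 of 0.45 and beside 5.93% higher over all genes. In small members 5 of 22 were higher and 0 lower, with a median of 0.20 and beside 7.44% higher over all genes. Pdk1, a kinase that limits pyruvate oxidation, had 156 CPM in cKO and 89.2 CPM in WT small members, a ratio of 1.75 (1.19 to 2.63). Pik3ip1, an inhibitor of PI3 kinase, had 121 CPM in cKO and 77.2 CPM in WT small members, a ratio of 1.57 (1.03 to 2.45). Il7r, the IL-7 receptor, had 20 UMIs in cKO and 1 UMI in WT small members, a ratio of 12.7 (2.03 to 527). Ddit4, a stress-induced inhibitor of mTOR signalling, had 112 CPM in cKO and 79.6 CPM in WT small members, a ratio of 1.41 (0.921 to 2.19).

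The remaining named higher genes had small counts. Ssbp4, a single-stranded DNA-binding protein, had 156 UMIs in cKO and 43 UMIs in WT members (log2 1.60), and was higher in small (1.17) and deep members (1.89). In Rag1 and late neighbours under 10000 UMIs its ratios were 1.25 (0.792 to 2.02) and 2.25 (1.11 to 4.79). Slc15a2, a peptide transporter, had 43 UMIs in 35 cKO cells and 9 UMIs in 7 WT cells. It was also higher in cKO in the Rag1 neighbours under 10000 UMIs, with 62 UMIs in cKO and 6 in WT (ratio 6.82, 2.96 to 19.3). In the late neighbours it had 9 UMIs in cKO and 2 in WT (5.26, 1.09 to 50.1). Sh3bp2, an adaptor in receptor signalling, had 56 UMIs in cKO and 14 in WT. Trib2, a pseudokinase, had 40 UMIs in cKO and 11 in WT, with 4 and 5 of these in cKO and WT deep members. Nrgn, which encodes neurogranin, had 70 UMIs in cKO and 19 UMIs in WT, but only 9 cKO cells and 7 WT cells held them, and its level in the agonist-signalled neighbours was 346 CPM in cKO and 247 CPM in WT. The others by the rule were Pogz, Nin, Nav2, Slc25a38 and Syne1, with log2 values of 1.17 to 1.36. All 12 were also higher in cKO among small members, with log2 values of 0.69 to 2.20. Small members are part of the cells that ranked these genes, so this is no independent evidence. In small members the intervals of Syne1 (ratio 1.70, 0.917 to 3.31) and Nin (2.27, 0.955 to 6.22) included 1.

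Several of the 12 named lower genes belonged to the deep members. Nkg7, a cytotoxic granule gene, had 16 UMIs in cKO and 85 UMIs in WT members (log2 -2.13), of which 15 in cKO and 85 in WT were in deep members. Cdca2 and Kif4, genes of cell division, had 19 and 16 UMIs in cKO and 39 and 38 in WT. Small members held at most 1 UMI of each of these 3 genes per library. Deep members held a larger part of the WT sum, as given above, and the part of this in these values was not tested. Tnfrsf4, which encodes OX40 and marks agonist signalling, had 22 UMIs in cKO and 52 UMIs in WT members, but a single cell held 45.5% of them in cKO and 46.2% in WT. Pkp3, a desmosomal plakophilin, had 20 UMIs in 18 cKO cells and 41 UMIs in 34 WT cells, a ratio of 0.446 (0.248 to 0.779). Ly6k, Ifitm2, Dmap1 and Trappc13 had log2 values of -1.23 to -0.92. Deep members held 29 of 30 cKO and 64 of 66 WT UMIs of Ifitm2, and 28 of 46 cKO and 90 of 107 WT UMIs of Ly6k. In small members the ratio was 0.674 (0.328 to 1.39) for Ly6k, 0.363 (0.132 to 0.928) for Dmap1 and 0.225 (0.0725 to 0.597) for Trappc13.

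**Figure D4:**
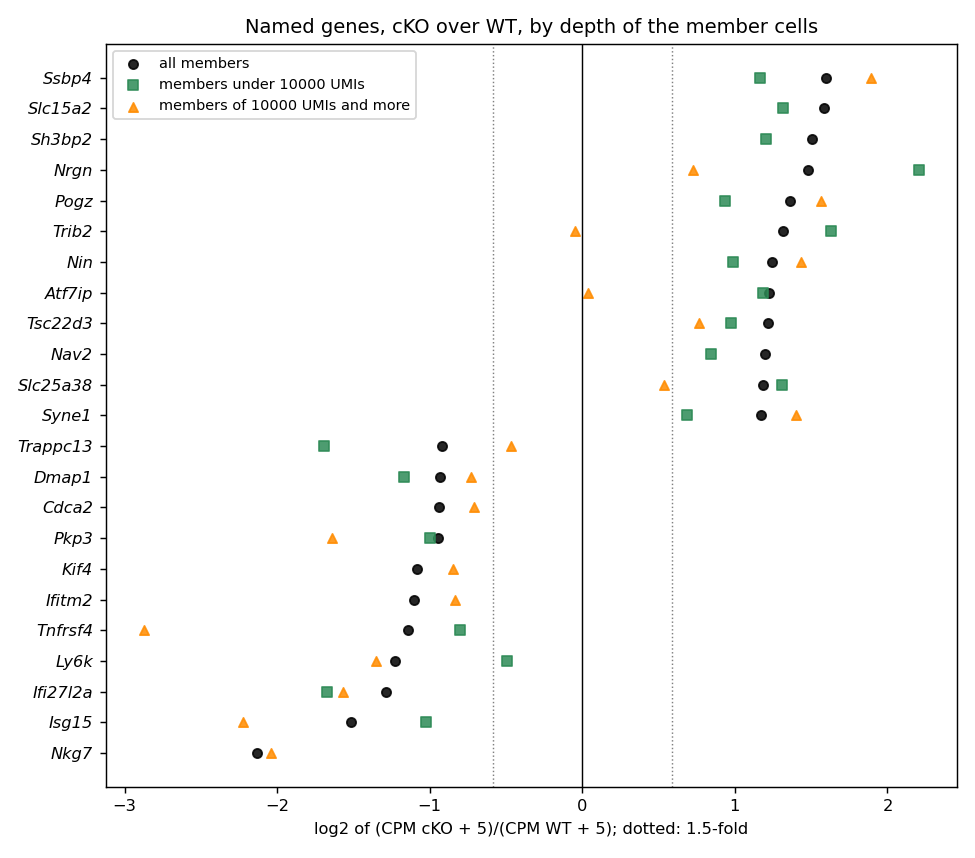
Log2 of (CPM cKO + 5)/(CPM WT + 5) of 23 named genes, for all members (black), members under 10000 UMIs (green) and members of 10000 UMIs and more (orange); a point is drawn where the cells held over 3 UMIs. Atf7ip lies to the right in small members and at 0.04 in deep members, and Nkg7 has points only for all and deep members.

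Interferon-stimulated genes were lower or level in cKO members. Of 34 measured genes 8 were at least 1.5-fold lower in cKO and 0 were higher, with a median log2 of -0.22, beside 3.36% lower over all genes. In small members 6 of 29 were lower and 0 higher, with a median of -0.28 beside -0.01 over all genes, of which 6.47% were lower. Ifi27l2a, an interferon-induced gene, had 55 UMIs (84.4 CPM) in cKO and 116 UMIs (280 CPM) in WT small members, a ratio of 0.302 (0.215 to 0.419). Its UMIs were in 20 cKO and 23 WT members, and a single cell held 19.7% of them in cKO and 28.3% in WT. Irf7, the factor that amplifies interferon production, had 7 UMIs in cKO and 16 UMIs in WT small members, a ratio of 0.278 (0.0968 to 0.715). Isg15, a ubiquitin-like protein, had 13 UMIs in cKO and 19 UMIs in WT small members, a ratio of 0.435 (0.198 to 0.929), and over all members a single WT cell held 37.5% of the WT UMIs. Bst2, which encodes tetherin, had 88.6 CPM in cKO and 162 CPM in WT members, and 49.1 CPM in cKO and 72.3 CPM in WT small members, a ratio in small members of 0.679 (0.399 to 1.16). Ifi27l2a reached 2147 CPM in cKO and 2423 CPM in WT late neighbours under 10000 UMIs, a ratio of 0.886 (0.806 to 0.974). In the Rag1 neighbours under 10000 UMIs it had 9 UMIs in cKO and 23 UMIs in WT, a ratio of 0.258 (0.105 to 0.579). Isg15 had ratios of 0.792 (0.314 to 2.05) in these Rag1 neighbours and 0.477 (0.304 to 0.733) in these late neighbours. The part of more advanced cells in the difference between the members was not tested.

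The promoters of Isg15 and Bst2 hold the letters of the interferon-stimulated response element. The search used the 250 bases before the start site, from RefSeq on GRCm38.p6, both strands, and the interferon motif as GAAA, any 2 bases and GAAA again, and it matched 978 of 32851 promoters (2.98%). Of the 8 genes lower over all members 5 had a promoter in the table (Isg15, Irf7, Irf9, Ifi35 and Bst2) and 2 had a match. These 8 came from a list of interferon-stimulated genes, and matches in its other genes were not counted. The matches therefore do not set the lower genes apart from the rest of the list. Both are shown 5′ to 3′ on the strand of the gene, with the overlapping matches in capitals, because they are the lower genes with a match. The windows are chr4:156200819-156201068 on the minus strand for Isg15 and chr8:71537473-71537722 on the minus strand for Bst2. Matches start 78, 72 and 66 bases before the start site of Isg15 and 130 and 124 bases before that of Bst2.
Isg15: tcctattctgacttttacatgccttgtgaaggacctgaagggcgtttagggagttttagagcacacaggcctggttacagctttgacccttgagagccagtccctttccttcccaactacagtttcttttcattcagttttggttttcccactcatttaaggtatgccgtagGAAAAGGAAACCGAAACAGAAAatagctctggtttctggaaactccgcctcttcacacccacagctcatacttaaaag
Bst2: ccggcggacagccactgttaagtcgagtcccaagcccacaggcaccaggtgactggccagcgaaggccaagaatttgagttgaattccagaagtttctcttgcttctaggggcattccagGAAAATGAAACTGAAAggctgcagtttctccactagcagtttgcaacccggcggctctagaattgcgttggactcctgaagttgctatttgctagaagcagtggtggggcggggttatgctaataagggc
A match describes letters in a window and not a bound site.

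**Figure D5:**
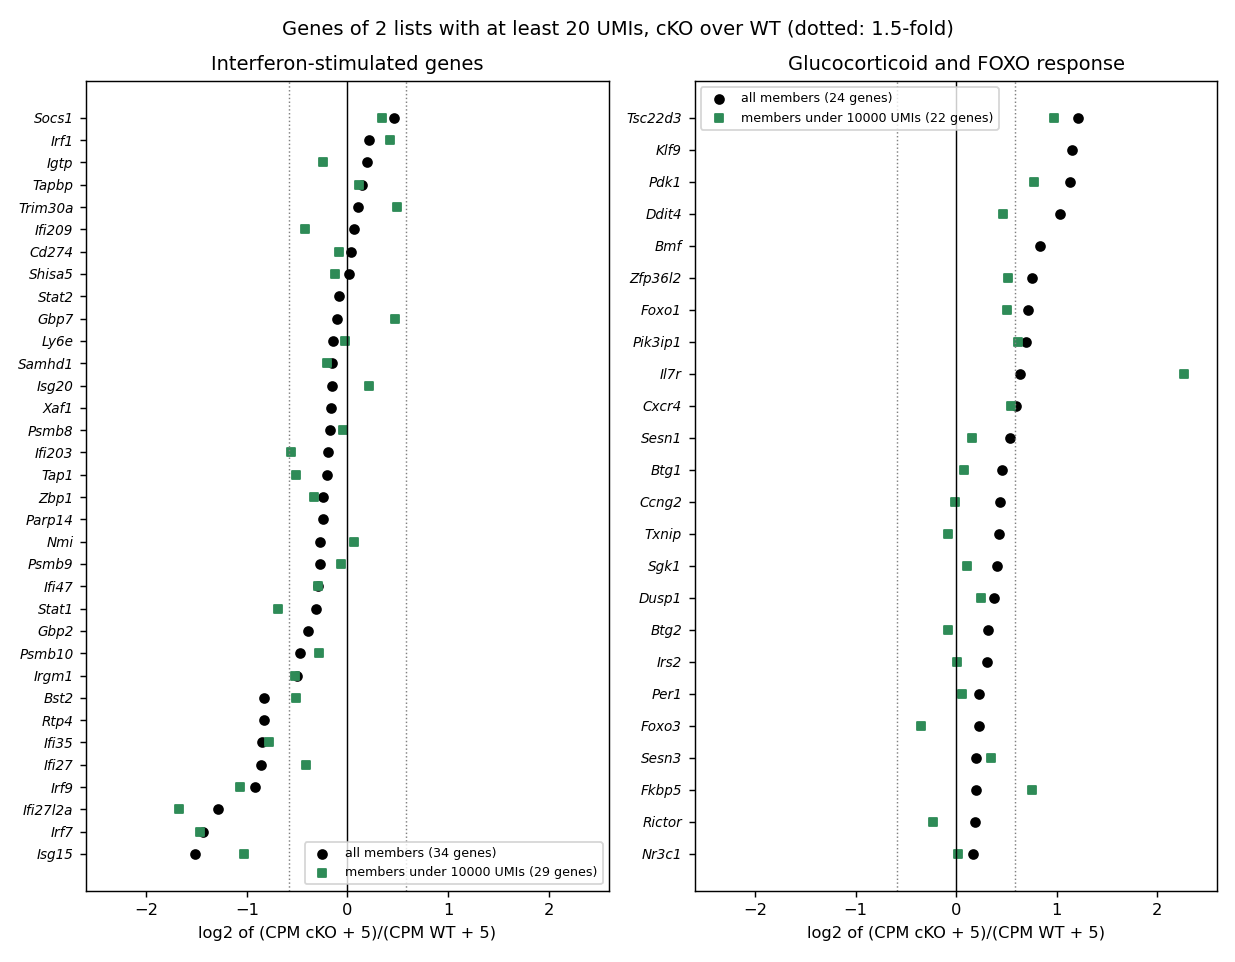
Log2 of (CPM cKO + 5)/(CPM WT + 5) of the interferon-stimulated genes (left) and of the glucocorticoid and FOXO response genes (right) with at least 20 UMIs, for all members (black) and members under 10000 UMIs (green). Over all members Isg15, Irf7 and Ifi27l2a lie lowest on the left, and Tsc22d3 and Pdk1 lie past 1.5-fold on the right in both sets.

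Of 27 genes of the TCR, CD3 and proximal signalling, 0 were higher and 1 lower (Ubash3a) in small members, with a median log2 of 0.03, beside 7.44% higher and 6.47% lower over all genes. Over all members 2 were higher (Tespa1 and Themis) and 0 lower, with a median of 0.19, beside 5.93% higher and 3.36% lower over all genes. Of 25 immediate TCR response genes, 3 were higher and 0 lower in small members, with a median of 0.04. Over all members 4 of 27 were higher (Bach2, Cd69, Id2 and Tnfaip3) and 0 lower, with a median of 0.28. The 3 in small members were Cd69 with 152 CPM in cKO and 91.6 CPM in WT (ratio 1.66, 1.13 to 2.48), Bach2, a repressor of effector genes, with 75.2 and 38.6 CPM in cKO and WT (1.95, 1.09 to 3.67), and Id2, an inhibitor of E proteins, with 95.1 and 48.2 CPM in cKO and WT (1.97, 1.17 to 3.45). Nr4a1 had 281 CPM in cKO and 263 CPM in WT, a ratio of 1.07 (0.838 to 1.37), and Egr1 had 81.3 CPM in cKO and 77.2 CPM in WT, a ratio of 1.05 (0.667 to 1.69). The thinned share of cells with a Cd69 UMI was 18.2% in cKO and 17.6% in WT.

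Over all members 8 of 23 DP program genes were higher, among them Plxnd1, Cd1d1 and Bcl6, and 0 lower. The median of the list was 0.42, beside 5.93% higher and 3.36% lower over all genes. Cd4 had 192 CPM in cKO and 125 CPM in WT small members, a ratio of 1.53 (1.10 to 2.16), and it was 1 of 2 higher among 8 CD4 lineage genes in small members (median 0.04) and in all members (0.21), with 0 lower in each. Of 22 DP program genes in small members 3 were higher (Slc16a5, Plxnd1 and Cd1d1) and 0 lower, with a median of 0.22, beside 7.44% higher and 6.47% lower over all genes. Plxnd1, a receptor that acts in thymocyte migration in mice, had 67.5 CPM in cKO and 31.3 CPM in WT (ratio 2.15, 1.14 to 4.36). Of 14 BCL2 family and apoptosis genes in small members, read against the same shares, 3 were lower and 1 was higher, Bbc3 (the p53-induced killer PUMA), with 103 CPM in cKO and 60.3 CPM in WT, a ratio of 1.70 (1.06 to 2.82). The 3 lower genes of that list were Bcl2a1b, Apaf1 and Bcl2l1, with 11 to 17 UMIs in cKO and 15 to 18 in WT, and Bcl2 itself had a ratio of 1.31 (1.04 to 1.65). Over all members 3 of 17 genes of that list were higher (Bbc3, Bmf and Bcl2l11) and 2 lower (Bcl2a1b and Bcl2a1d), beside 5.93% higher and 3.36% lower over all genes.

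Among genes of strong signalling, 2 of 14 negative selection genes were higher in small members (Bbc3 and Tnfrsf18, a TNF receptor family gene) and 1 was lower (Tnfrsf4). Over all members 2 of 17 were higher (Bbc3 and Bcl2l11) and 1 lower (Tnfrsf4). Of 7 Treg program genes in small members 1 was higher (Tnfrsf18) and 1 lower (Tnfrsf4), and of 9 over all members 0 were higher and 1 lower (Tnfrsf4). Of 14 chemokine receptor and adhesion genes in small members 2 were higher (Plxnd1 and Itgb7) and 2 lower (Itga6 and Ccr7), with a median of 0.22. Over all members 5 of 17 were higher (Plxnd1, Itgb7, Itgal, Cxcr4 and Gpr65) and 0 lower, with a median of 0.34. All genes beside these lists gave 7.44% higher and 6.47% lower in small members, and 5.93% higher and 3.36% lower in all members.

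Maturation and egress genes gave more lower than higher calls in cKO small members. Of 25 genes, 6 were lower (Ms4a4b, Ms4a6b, Gimap4, Ccr7, H2-K1 and Tgfbr2) and 2 higher (Il7r and Itgb7), with a median of -0.09, beside 6.47% lower and 7.44% higher over all genes. H2-K1 had 112 CPM in cKO and 181 CPM in WT, a ratio of 0.619 (0.442 to 0.866). Ms4a6b, a surface protein of mature T cells, had 81.3 CPM in cKO and 157 CPM in WT, a ratio of 0.519 (0.354 to 0.757). Over all members the same list had 6 higher and 1 lower of 26, beside 5.93% higher and 3.36% lower over all genes. Oxidative phosphorylation had 0 genes called of 36, in all and in small members. Lists of heat shock, cholesterol synthesis, glycolysis and MYC, S phase, and G2 and M phase had at most 2 genes called in either direction in either set. Their medians over all members were -0.06, -0.08, -0.19, -0.12 and -0.27 in this order, beside 0.03 over all genes. Few genes could be called in small members, where 10 of 22 cholesterol, 12 of 23 S phase and 3 of 23 G2 and M phase genes had at least 20 UMIs.

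Lists of markers of other cell types were summed as well. The 12 B cell genes summed to 295 CPM in cKO and 315 CPM in WT members, and to 293 CPM in cKO and 364 CPM in WT small members. Over all members 7 of the 12 were at 0 UMIs in cKO and 5 in WT, with Cd79a and Ms4a1 at 0 in both, and 1 was called, H2-Ab1 (MHC class II), higher with 15 UMIs in cKO and 6 in WT. The 16 myeloid and dendritic genes summed to 124 CPM in cKO and 133 CPM in WT members, with 11 at 0 in each, and to 161 CPM in cKO and 222 CPM in WT small members. The 12 epithelial and stromal genes summed to 46.5 CPM in cKO and 63.0 CPM in WT members, with 10 at 0 in each, and to 50.6 CPM in cKO and 86.8 CPM in WT small members. All 6 erythroid genes were at 0. The 14 invariant and innate-like T genes summed to 494 CPM in cKO and 496 CPM in WT members, with 9 at 0 in each. In small members they summed to 201 CPM in cKO and 178 CPM in WT, with 9 at 0 in cKO and 10 in WT. Zbtb16, which defines invariant T cells, was at 0 UMIs in both libraries. The 9 gamma-delta T genes summed to 486 CPM in cKO and 614 CPM in WT members, and to 129 CPM in cKO and 116 CPM in WT small members.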

How the data were processed

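RNA was counted in 1 cKO and 1 WT library of CD25-enriched thymocytes. Deposited values are raw UMI counts for each gene in each barcode, from Cell Ranger 6.1.1 per the file headers. CASAVA 1.8 and Seurat 4.0.3 are named besides in the submitters' processing notes. The genome build and the strand setting of counting are not given in the sources used here. A barcode was kept if it had 500 or more genes, 1000 or more UMIs and no more than 10% of UMIs from mitochondrial genes (members: 1354294 UMIs in cKO, 1238016 in WT). Doublets were scored with scrublet in scanpy 1.11.5 (expected rate 0.06) at the WT threshold, 0.2902, because the automatic cKO threshold called 1 barcode.

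UMIs were summed per library over cells of a class and scaled to a fixed total (CPM). Fold values are log2 ratios, cKO over WT, of CPM plus 5, among genes with at least 50 UMIs over both libraries (20 for lists). A call is at least 1.5-fold. The 17 genes of the rule, TCR and Ig segments and mitochondrial genes are not counted. Shares carry Clopper-Pearson, sums exact Poisson and ratios exact binomial intervals (Python 3.11.15, numpy 2.4.6, scipy 1.17.1, pandas 2.3.3). Steps were tested on simulated data. Of 28 gene lists, 1 gene had no match. The named genes are the 12 highest and 12 lowest folds with an interval that excludes 1 (3 each way for gene models), the genes furthest from each neighbour, and list members with a defining role. Members and lists were chosen with earlier results of these data known, and the 10000-UMI limit was added after the depths had been seen. Some of these results are not reported here. Alternatives varied the filters, the rule, the cells, the scaling, the pseudocount and the UMI minimum.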

Additional observations from a re-analysis of the deposited data

Results flagged for a closer look

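Among the named genes with at least 20 UMIs in both sets, 4 were at least 1.5-fold apart in opposite directions in small members and in a neighbouring stage under 10000 UMIs. These rest on few UMIs, other named genes differed in sign below these limits, and the difference between the stages was not tested. Pkp3 had a log2 of -1.0 in small members (18 UMIs in cKO, 25 in WT) and 0.79 in the late neighbours (28 in cKO, 18 in WT). Casp8ap2, a caspase-8-associated protein, had -0.99 in small members (30 in cKO, 40 in WT) and 0.61 in the late neighbours (27 in cKO, 20 in WT). Ms4a4b, a surface protein of mature T cells, had -1.0 in small members (25 in cKO, 34 in WT) and 1.72 in the Rag1 neighbours (23 in cKO, 3 in WT). The gene model AW112010 had -0.73 in small members (11 in cKO, 13 in WT) and 1.02 in the Rag1 neighbours (19 in cKO, 5 in WT).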

How the results depend on the processing

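The ratio of the member share, cKO over WT, lay between 1.33 and 1.63 under the 9 alternatives that gave a share. Small members were among these alternatives and deep members, with a ratio of 0.768 (0.411 to 1.42), were not. No paired analysis was possible because each genotype had 1 library and no replicate numbers. The counts of genes at least 1.5-fold apart, 267 higher and 127 lower of 5870, moved by over 1.5 times under the following settings, given as higher and then lower. They were 474 and 262 of 5320 without a Tnfrsf9, Nfkbid or Xcl1 UMI, 48 and 36 of 327 in cells with Cd4 only, 133 and 83 of 1357 in cells with Cd4 and Cd8 (a larger share of fewer genes in all 3), and 623 and 586 with members thinned before summing. They were 94 and 29 at a pseudocount of 20, 476 and 270 of 8026 at 20 UMIs, 129 and 42 of 3870 at 100 UMIs, and 683 and 486 of 12475 at 1 UMI. One of the counts moved in other settings: 167 of 4904 higher at 2 or more Cd5 UMIs, 152 of 3616 higher in small members, 101 of 3864 higher in deep members, 284 of 3830 lower without cells holding markers of other types, and 384 lower for the mean of per-cell CPM. In that last setting 353 genes were higher, so that the lower genes outnumbered them. Of the stage counts, genes lower than in the Rag1 neighbours numbered 196 and genes higher than in the late neighbours 439 once only cells under 10000 UMIs were used. Values called over all members that turned round in the few Cd4-only cells were Tsc22d3 at -0.91, Resf1 at -1.05, Gm5914 at -0.21, AI467606 at -0.20, Ifi27l2a at 3.36 and Tnfrsf4 at 3.65. Ly6k was at 0.64 in cells with Cd4 and Cd8, and Kif4 at 0.18 when cells were thinned before the rule. In deep members Trib2 was at -0.050, Itfg2 at -0.11 and Suco at -0.19. Named genes under 1.5-fold over all members also changed sign in some settings, such as Ephb6 (0.28 in deep members) and Tmbim4 (0.68 with Cd4 only). The cause of these shifts was not tested. Interferon-stimulated genes had a negative median in all settings except cells with Cd4 and Cd8 (0.05), and the glucocorticoid and FOXO list had a positive median in every setting that gave one.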
